A study of Mus musculus with 23 samples.

Results

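The 32 genes described here cover cholesterol synthesis, uptake, intracellular traffic and sterol sensing, together with the efflux side that the liver X receptors (LXR) control. They were chosen by gene symbol, and all 32 had a row among the 23453 genes of the count table. Sequencing was of RNA from mouse embryonic hearts, taken on embryonic day 13.5 and all under the strain label C57BL/6. The 7 triple-knockout hearts were GRK2 fl/fl, GRK5 fl/fl and GRK6 KO/KO with Nkx2.5Cre, a Cre recombinase driver active in the cardiac lineage. The 8 haploinsufficient hearts were GRK2 fl/wt, GRK5 fl/fl and GRK6 KO/KO with the same driver. The 8 wild-type hearts were wt/wt for GRK2, GRK5 and GRK6 and carried no Cre. Both GRK-deficient groups thus share the floxed GRK5 alleles, the GRK6 knockout and Cre, and by label differ from each other in a single GRK2 allele. Cre, the floxed alleles and the GRK6 knockout cannot be told apart in a comparison with wild type. GRK2, GRK5 and GRK6 are kinases that act on activated G-protein coupled receptors, and the series concerns atrioventricular canal defects of hearts that lack them.

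Cells make cholesterol from acetyl-CoA through mevalonate and isoprenoid intermediates, which are joined to squalene, closed to lanosterol and trimmed to cholesterol. When sterol in the endoplasmic reticulum is low, SCAP escorts the membrane-bound factor SREBP2 (gene Srebf2) to the Golgi, where proteases free the part that activates transcription. SREBP2 then switches on the synthesis genes, and it does so beside the constitutive factor NF-Y. INSIG proteins hold SCAP back when sterol is plentiful, and Insig1 is itself an SREBP target. LXR act in the other direction: oxysterols activate them, and they raise efflux genes such as Abca1 and Abcg1.

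Total counts per library ran between 6657734 and 13864731 in the triple-knockout group, between 1757257 and 11025358 in the haploinsufficient group, and between 3838166 and 14050559 in the wild-type group. Levels are given in CPM, counts scaled to library size, here with the TMM method. Cre stood at 8.21 to 24.9 CPM in triple-knockout hearts, at 9.88 to 23.9 CPM in haploinsufficient hearts and at 0 to 0.857 CPM in wild-type hearts. Counts summed over the single-exon features of Grk2, listed as Adrbk1, had a median of 33.8 CPM in triple-knockout hearts, 46.4 CPM in haploinsufficient hearts and 54.3 CPM in wild-type hearts. The summed features of Grk5 lay between 10.9 and 19.7 CPM in triple-knockout hearts, between 8.24 and 15.2 CPM in haploinsufficient hearts and between 20.2 and 27.4 CPM in wild-type hearts. Grk6 lay between 9.63 and 20.7 CPM, between 11.02 and 23.3 CPM, and between 26.2 and 35.5 CPM in the same 3 groups. Cardiomyocyte markers, 8 genes such as Tnnt2 and Myh6, summed to between 23902 and 46719 CPM in triple-knockout hearts, to between 24631 and 45041 CPM in haploinsufficient hearts and to between 27749 and 40872 CPM in wild-type hearts, and none was at 0. Whether every replicate is its own embryo is not stated in the labels, so p-values reflect only the spread among these libraries, some of which may be technical. In RNA from whole hearts, a change in the number of cells of a type and a change in RNA per cell cannot be told apart.

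Promoters were read because the synthesis genes share a regulator. RefSeq windows of 300 bases, 250 before and 50 after the start of a transcript (build GRCm38.p6), were given for 26 of the 32 genes. They were searched on both strands for ATTGG, the box bound by NF-Y, for TCACNCCAC, a form of the sterol regulatory element that SREBP binds, and for AGGTCA repeated after 4 bases, the type of element that LXR binds. ATTGG was present in 20 of the 26 genes, against 41.1% of 27025 genes with a window. By role it was present in 6 of 7 mevalonate genes, 8 of 8 sterol-stage genes, 3 of 4 sensing genes, 3 of 3 uptake and traffic genes and 0 of 4 efflux genes. TCACNCCAC was present in 1 of the 26 genes, Hmgcs1, at 137 bases before its start, against 1.44% of all genes, and that site overlaps no ATTGG. The LXR repeat was found in none of the 26 and in 4 of all 27025 genes. A match is a description of letters, and its absence says only that these letters were not in the window.

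The 250 bases before the start are shown for 4 genes that differ in these motifs and in their response. Hmgcs1 and Insig1 rose in both GRK-deficient groups. Mvk passed the test in neither and holds the most NF-Y boxes of the 4. In Abca1, the cholesterol exporter, none of the exact strings searched was found, and whether it holds an LXR element of other letters was not examined. Capitals mark ATTGG on either strand and, in Hmgcs1, TCACCCCAC. The stretches are chr13:119690101-119690350 on the plus strand for Hmgcs1, chr5:28071162-28071411 on the plus strand for Insig1, chr5:114444019-114444268 on the plus strand for Mvk and chr4:53159896-53160145 on the minus strand for Abca1. They are written 5′ to 3′ along the gene.
Hmgcs1: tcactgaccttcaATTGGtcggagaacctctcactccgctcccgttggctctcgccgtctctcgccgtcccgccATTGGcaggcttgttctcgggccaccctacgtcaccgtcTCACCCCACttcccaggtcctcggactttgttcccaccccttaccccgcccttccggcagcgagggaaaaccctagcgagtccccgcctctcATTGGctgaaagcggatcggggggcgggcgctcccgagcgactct
Insig1: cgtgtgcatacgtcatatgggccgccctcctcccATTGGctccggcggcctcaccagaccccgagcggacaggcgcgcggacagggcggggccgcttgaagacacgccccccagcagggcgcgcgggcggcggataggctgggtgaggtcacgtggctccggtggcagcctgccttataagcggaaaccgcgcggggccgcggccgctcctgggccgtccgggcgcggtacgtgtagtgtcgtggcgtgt
Mvk: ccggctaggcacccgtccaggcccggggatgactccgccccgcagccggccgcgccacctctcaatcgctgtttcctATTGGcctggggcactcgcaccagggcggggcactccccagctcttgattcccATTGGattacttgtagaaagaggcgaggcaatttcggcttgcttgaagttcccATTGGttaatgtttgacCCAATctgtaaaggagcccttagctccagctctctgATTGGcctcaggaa
Abca1: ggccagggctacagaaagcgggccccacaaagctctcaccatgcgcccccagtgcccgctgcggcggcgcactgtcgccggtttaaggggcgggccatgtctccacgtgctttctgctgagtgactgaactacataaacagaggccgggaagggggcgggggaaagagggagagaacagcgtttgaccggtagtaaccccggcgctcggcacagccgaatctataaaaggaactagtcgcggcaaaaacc
The Hmgcs1 stretch holds 3 NF-Y boxes, the Insig1 stretch 1 and the Mvk stretch 5.

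Levels between genes were compared in FPKM, the fragments of a gene scaled by transcript length and library size, which the authors deposited. In wild-type hearts Apoe, the lipoprotein ligand that carries cholesterol between cells, was far above the other genes at 257 ± 26.9 FPKM (SD, n = 8). Fdps, the farnesyl diphosphate synthase, followed at 56.1 ± 9.36 FPKM, and Npc2, the soluble lysosomal cholesterol carrier, at 41.5 ± 2.63 FPKM. The ranges of Fdps and Npc2 did not overlap with that of Apoe. Pmvk (32.8 ± 2.31 FPKM) and Srebf2 (30.5 ± 3.10 FPKM) came next with overlapping ranges, ahead of Hmgcs1 at 24.5 ± 1.52 FPKM. Within the synthesis genes, the lowest were Tm7sf2 at 3.63 ± 0.751 FPKM and Nsdhl at 3.94 ± 1.12 FPKM, both enzymes of the late sterol stage, and these 2 did not differ beyond their spread. Nr1h2, which encodes the widely expressed receptor LXR-beta, stood at 16.4 ± 4.57 FPKM, and Nr1h3, which encodes LXR-alpha, at 1.94 ± 0.755 FPKM, the lowest of all 32.

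**Figure D1:**
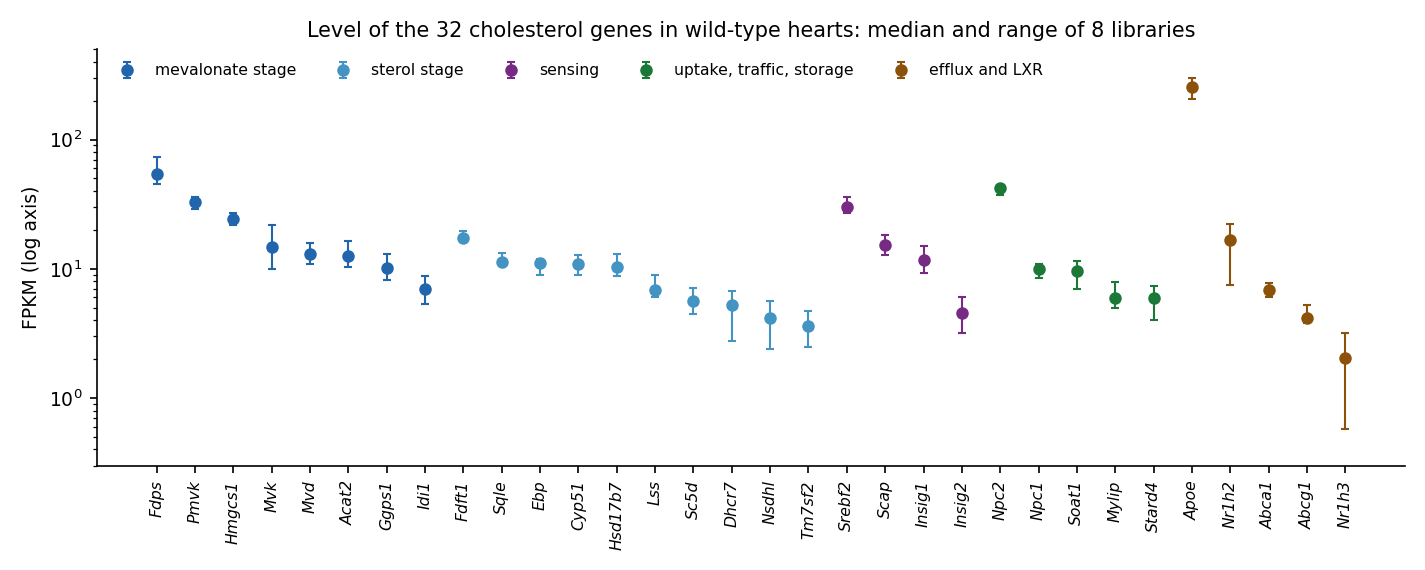
Level of each of the 32 genes in the 8 wild-type hearts in FPKM on a log axis, grouped by role; points are medians and bars run between the lowest and highest library. Apoe lies above all others at a mean of 257 FPKM, and Nr1h3 is lowest at 1.94 FPKM.

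In triple-knockout hearts, 6 of the 32 genes rose against wild type and none fell. They were Hmgcs1, Idi1, Fdft1 and Lss from the synthesis pathway, the sterol sensor Insig1 and the sterol carrier Stard4. The increases lay between 1.31-fold and 1.60-fold. Genes were called at a Benjamini-Hochberg adjusted p under 0.05 over the 13941 genes tested with edgeR's quasi-likelihood test, and all 32 genes were among those tested. Of all genes tested, 0.488% were called higher and 0.696% lower. An unadjusted p under 0.05, in either direction, was reached by 14 of the 32 genes and by 10.8% of all genes tested. None of the 32 was lower at an unadjusted p under 0.05 in edgeR, and DESeq2 and limma called none lower. Over the 32 genes, 24 had a positive log2 fold change and the median was 0.23, whereas the median over all genes tested was 0.01 and 51.8% were positive.

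At the mevalonate stage, Hmgcs1, the cytosolic synthase that makes HMG-CoA (mm10, chromosome 13, 119690462 to 119708077), had a lowest, median and highest level of 109, 134 and 151 CPM in triple-knockout hearts, against 71.2, 82.5 and 92.4 CPM in wild-type hearts. Every triple-knockout library was above every wild-type library. The log2 fold change was 0.68 ± 0.09 (SE, edgeR adjusted p = 3.41e-05). Idi1, the isomerase that makes the isoprenoid building block dimethylallyl diphosphate (chromosome 13, 8885606 to 8892396), had 25.3, 27.5 and 37.8 CPM in triple-knockout hearts and 14.995, 20.8 and 24.9 CPM in wild-type hearts. Its groups did not overlap either, and the log2 fold change was 0.51 ± 0.12 (edgeR adjusted p = 0.0368). Hmgcs1 and Idi1 were the only ones of the 32 without overlap, 2 genes, against 0.395% of all genes tested in that direction. Fdps, which joins these units to farnesyl diphosphate, had 70.0, 80.6 and 88.1 CPM in triple-knockout hearts, against 53.2, 62.6 and 86.3 CPM in wild-type hearts. Only 1 triple-knockout library lay above the highest wild-type library, and the log2 fold change of 0.32 ± 0.11 did not pass the test (edgeR adjusted p = 0.206). Acat2, the thiolase that makes acetoacetyl-CoA, had 9.65, 17.3 and 23.1 CPM in triple-knockout hearts and 8.53, 11.7 and 17.96 CPM in wild-type hearts. These ranges overlapped, with a log2 fold change of 0.53 ± 0.19 (edgeR adjusted p = 0.221). The mevalonate kinase gene Mvk, the phosphomevalonate kinase gene Pmvk, the decarboxylase gene Mvd and Ggps1, which makes geranylgeranyl diphosphate for protein prenylation, had log2 fold changes between -0.02 and 0.19. Of the 8 genes of the stage, 2 rose and the median log2 fold change was 0.25.

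In the sterol stage, Fdft1, the squalene synthase that commits farnesyl units to sterols (chromosome 14, 63145150 to 63177793), had 51.4, 63.0 and 74.9 CPM in triple-knockout hearts and 43.0, 47.8 and 56.1 CPM in wild-type hearts. In 6 of 7 triple-knockout libraries it was above the highest wild-type library, and it rose by a log2 fold change of 0.38 ± 0.09 (edgeR adjusted p = 0.0293). Its exons share 774 bases with the exons of Ctsb on the opposite strand, and the libraries do not keep the strand. Ctsb itself had a log2 fold change of 0.15 (edgeR adjusted p = 0.673). Lss, the cyclase that closes lanosterol (chromosome 10, 76531627 to 76553934), had 26.1, 31.7 and 41.1 CPM in triple-knockout hearts, against 17.2, 21.9 and 27.4 CPM in wild-type hearts. It too was above the highest wild-type library in 6 of 7, and it rose with a log2 fold change of 0.52 ± 0.12 (edgeR adjusted p = 0.0298). Its exons share 188 bases with an unnamed gene model on the opposite strand.

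Nsdhl (chromosome X, 72918521 to 72958528) encodes an enzyme that helps to remove methyl groups from the sterol. Nsdhl had the highest log2 fold change of the 32, 0.79 ± 0.21, but narrowly missed the threshold (edgeR adjusted p = 0.0544). It had 11.2, 14.7 and 21.5 CPM in triple-knockout hearts and 5.07, 9.15 and 12.1 CPM in wild-type hearts. DESeq2 called it. Sqle, the epoxidase that is a slow step of the pathway, had 28.4, 45.4 and 50.9 CPM in triple-knockout hearts and 29.3, 31.1 and 35.4 CPM in wild-type hearts. Cyp51, the demethylase of lanosterol, had 48.4, 62.6 and 71.5 CPM in triple-knockout hearts, against 38.4, 49.4 and 56.2 CPM in wild-type hearts. Both had a log2 fold change of 0.37, with SE of 0.12 for Sqle (edgeR adjusted p = 0.138) and 0.11 for Cyp51 (edgeR adjusted p = 0.132). Hsd17b7, a sterol ketoreductase, had a log2 fold change of 0.28 ± 0.12 (edgeR adjusted p = 0.350). Dhcr7, which makes cholesterol from 7-dehydrocholesterol, had one of 0.40 ± 0.18 (edgeR adjusted p = 0.403). The sterol reductase gene Tm7sf2 and the desaturase gene Sc5d had positive values, and the isomerase gene Ebp was the only sterol-stage gene below 0, at -0.08. In all, 2 of 10 sterol-stage genes rose, 9 of 10 were positive and the median was 0.38. Over both stages together 4 of 18 synthesis genes rose, 15 of 18 were positive and the median log2 fold change was 0.37.

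**Figure D2:**
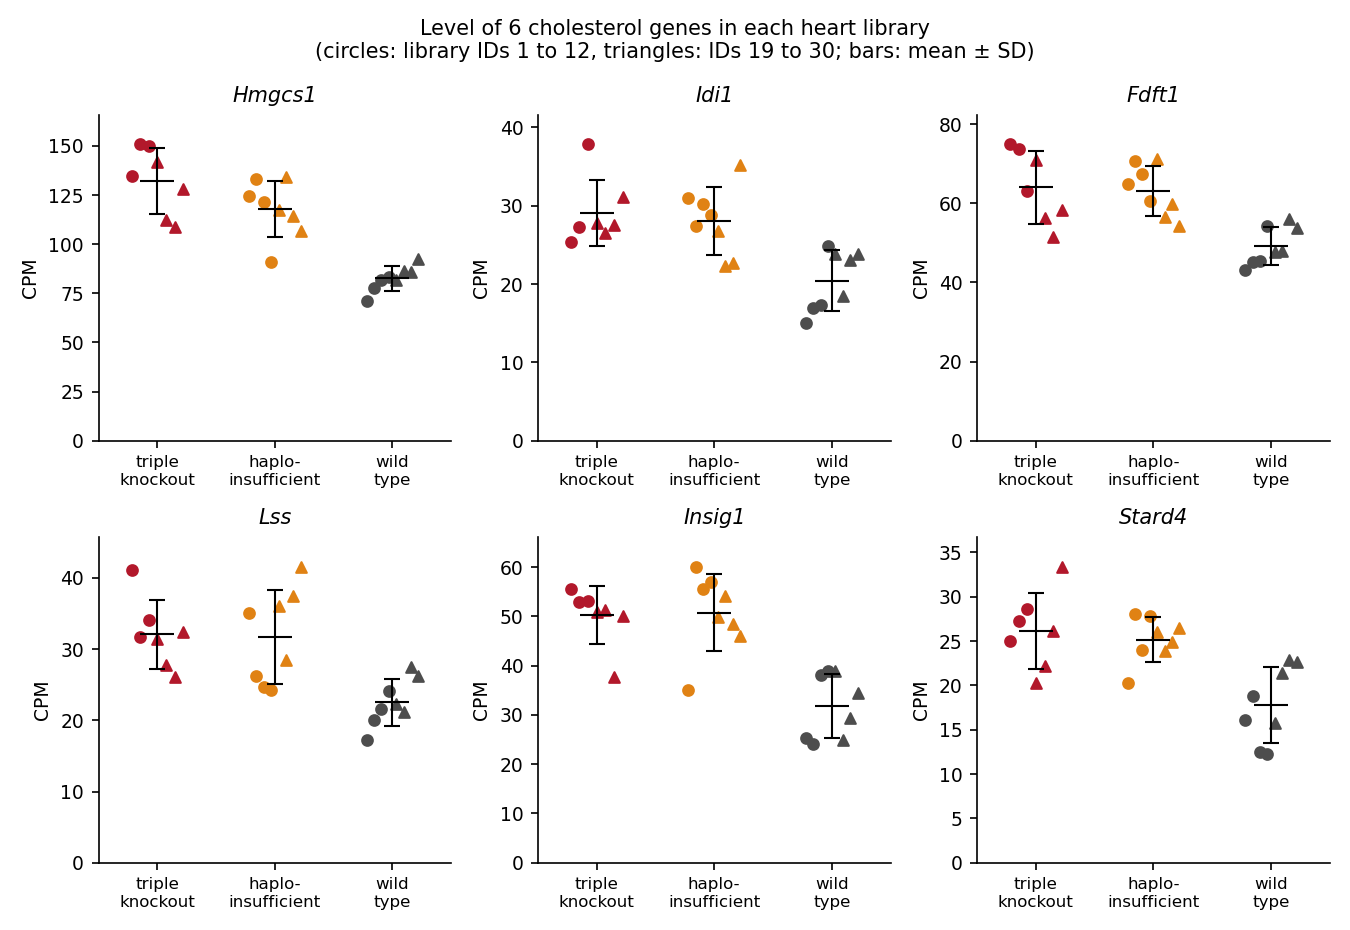
CPM of the 6 genes that rose in triple-knockout hearts, 1 point per library, with triple-knockout, haploinsufficient and wild-type hearts from left to right; bars give mean ± SD, circles are library IDs 1 to 12 and triangles IDs 19 to 30. For Hmgcs1 and Idi1 all 7 triple-knockout libraries lie above all 8 wild-type libraries.

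Among the sensing genes, Insig1 (chromosome 5, 28071412 to 28078662) had 37.6, 51.4 and 55.6 CPM in triple-knockout hearts and 24.2, 31.98 and 39.0 CPM in wild-type hearts. A single triple-knockout library, replicate 6, lay within the wild-type range. Insig1 rose with a log2 fold change of 0.66 ± 0.12 (edgeR adjusted p = 0.00293). The regulators above it did not pass the test. Srebf2, the gene of the activator itself, had 140, 154 and 193 CPM in triple-knockout hearts and 129, 146 and 166 CPM in wild-type hearts, a log2 fold change of 0.17 ± 0.10 (edgeR adjusted p = 0.574). The escort gene Scap was at -0.10 ± 0.11 (edgeR adjusted p = 0.824) and Insig2, the second sterol-dependent anchor, at 0.01 ± 0.19 (edgeR adjusted p = 0.994). SREBP2 is regulated chiefly by cleavage, which RNA levels do not measure.

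Of the uptake, traffic and storage genes, Stard4, a cytosolic sterol carrier (chromosome 18, 33201421 to 33213816), rose with a log2 fold change of 0.55 ± 0.13 (edgeR adjusted p = 0.0289). It had 20.3, 26.1 and 33.4 CPM in triple-knockout hearts and 12.3, 17.5 and 22.9 CPM in wild-type hearts, and 5 of 7 triple-knockout libraries exceeded the highest wild-type library. The other 4 did not pass: Mylip, a ubiquitin ligase that marks lipoprotein receptors for degradation, the lysosomal exporters Npc1 and Npc2, and Soat1, which esterifies cholesterol for storage, had log2 fold changes between 0.00 and 0.17. On the efflux side, none of 5 genes passed with edgeR, DESeq2 or limma, and 1 had an unadjusted p under 0.05. That gene was Abca1, which loads cholesterol onto apolipoproteins. Abca1 had 65.7, 93.3 and 135 CPM in triple-knockout hearts and 64.0, 76.5 and 82.9 CPM in wild-type hearts, a wider spread above a similar lowest level, and its log2 fold change was 0.41 ± 0.14 (edgeR adjusted p = 0.178). The receptor genes Nr1h2 and Nr1h3 were at 0.01 ± 0.13 and -0.08 ± 0.32 (edgeR adjusted p = 0.994 and 0.963). Abcg1, the exporter to formed lipoprotein particles, had 13.7, 25.97 and 30.6 CPM in triple-knockout hearts and 23.8, 25.2 and 33.2 CPM in wild-type hearts. Apoe had 215, 270 and 332 CPM in triple-knockout hearts and 242, 292 and 354 CPM in wild-type hearts. Both ranges overlapped widely, and the median log2 fold change of the 5 efflux genes was -0.07.

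**Figure D3:**
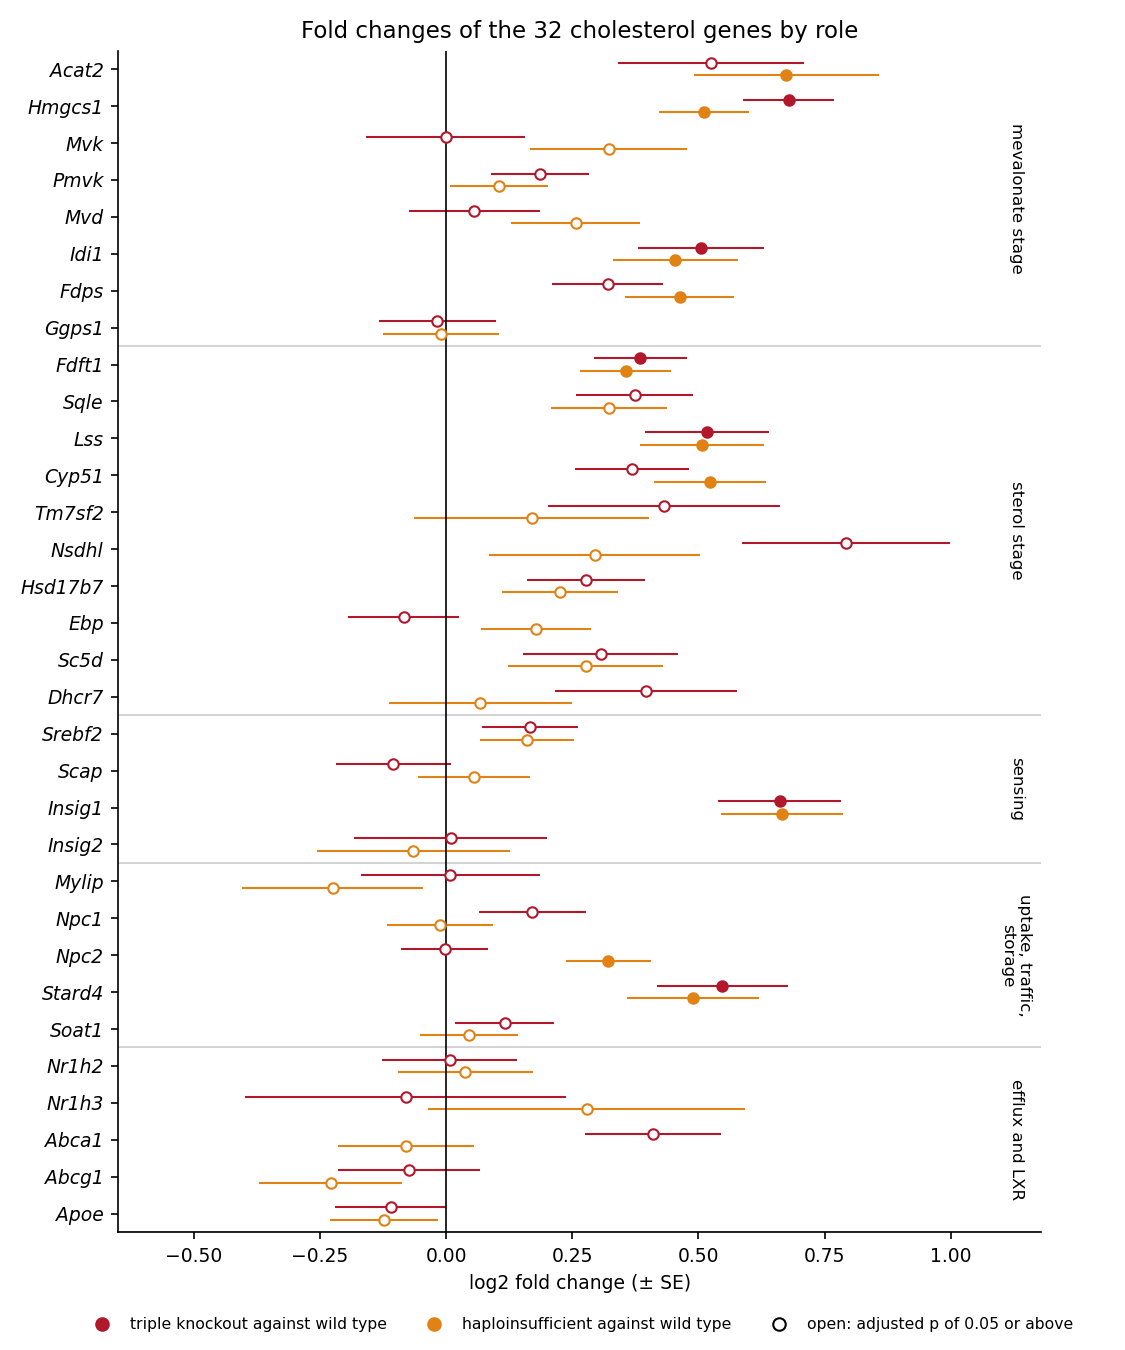
Log2 fold change ± SE of each of the 32 genes, by role, in triple-knockout hearts (red) and haploinsufficient hearts (orange) against the same 8 wild-type hearts; filled points passed the edgeR test at an adjusted p under 0.05. Filled points lie to the right of 0 among synthesis, sensing and traffic genes, and no efflux or LXR gene has one.

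In haploinsufficient hearts, 10 of the 32 genes rose against wild type and none fell, by edgeR and by DESeq2. None of the 32 was lower at an unadjusted p under 0.05 in edgeR, and limma called 4, all higher. Of all genes tested, 0.861% were called higher and 1.38% lower. An unadjusted p under 0.05 was reached by 12 of the 32 genes and by 17.2% of all genes tested. Beside Hmgcs1, Idi1, Fdft1, Lss, Insig1 and Stard4, the 10 were Acat2, Fdps, Cyp51 and Npc2. This comparison uses the same wild-type libraries as the triple-knockout one, so the values of the 2 comparisons are given side by side and are not independent. Over the 32 genes 25 were positive with a median log2 fold change of 0.24, against 52.0% of all genes tested and a median of 0.01. None of the 32 separated the groups fully, whereas 0.172% of all genes tested did so in that direction.

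Hmgcs1 had a lowest, median and highest level of 91.2, 120 and 134 CPM in haploinsufficient hearts. In 7 of 8 libraries it lay above the highest wild-type library at 92.4 CPM, and its log2 fold change was 0.51 ± 0.09 (edgeR adjusted p = 0.00143). Acat2 had 11.96, 18.7 and 26.97 CPM in haploinsufficient hearts, against 8.53, 11.7 and 17.96 CPM in wild-type hearts, and rose with a log2 fold change of 0.67 ± 0.18 (edgeR adjusted p = 0.0481). Fdps had 70.8, 86.3 and 108 CPM in haploinsufficient hearts, against 53.2, 62.6 and 86.3 CPM in wild-type hearts. All 8 haploinsufficient libraries were above the wild-type median, and Fdps rose with a log2 fold change of 0.46 ± 0.11 (edgeR adjusted p = 0.0197). Idi1 rose by 0.45 ± 0.12 on the log2 scale, with 22.3, 28.1 and 35.3 CPM in haploinsufficient hearts (edgeR adjusted p = 0.0485). Of the mevalonate stage, 4 of 8 genes rose and the median log2 fold change was 0.39. Mvk, which did not pass, had 23.8, 29.2 and 40.1 CPM in haploinsufficient hearts and 16.02, 23.3 and 35.5 CPM in wild-type hearts (0.32 ± 0.16, edgeR adjusted p = 0.282).

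In the sterol stage Cyp51 had 48.8, 67.5 and 95.7 CPM in haploinsufficient hearts, against 38.4, 49.4 and 56.2 CPM in wild-type hearts. It was above the highest wild-type library in 7 of 8 and rose with a log2 fold change of 0.52 ± 0.11 (edgeR adjusted p = 0.00932). Lss had 24.3, 31.8 and 41.6 CPM in haploinsufficient hearts, a log2 fold change of 0.51 ± 0.12 (edgeR adjusted p = 0.0262), and was above the highest wild-type library in 5 of 8. Fdft1 had 54.2, 62.6 and 71.2 CPM in haploinsufficient hearts and rose by 0.36 ± 0.09 on the log2 scale (edgeR adjusted p = 0.0344), while Ctsb on the opposite strand was at 0.07 (edgeR adjusted p = 0.769). Sqle did not pass the test at 0.32 ± 0.11 (edgeR adjusted p = 0.143). All 10 sterol-stage genes were positive, 3 of them rose and the median was 0.29. Over both stages 7 of 18 synthesis genes rose, 17 were positive and the median was 0.31.

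Insig1 had 35.1, 52.0 and 60.1 CPM in haploinsufficient hearts and 24.2, 31.98 and 39.0 CPM in wild-type hearts. It lay above the wild-type range in 7 of 8 libraries, with a log2 fold change of 0.67 ± 0.12 (edgeR adjusted p = 0.00243). Srebf2 (0.16 ± 0.09, edgeR adjusted p = 0.391), Scap (0.06 ± 0.11, edgeR adjusted p = 0.848) and Insig2 (-0.07 ± 0.19, edgeR adjusted p = 0.901) did not pass. Stard4 rose with 20.3, 25.4 and 28.02 CPM in haploinsufficient hearts, above the highest wild-type library in 7 of 8 (0.49 ± 0.13, edgeR adjusted p = 0.0419). Npc2 (chromosome 12, 84754559 to 84773112), which hands cholesterol to Npc1 inside the lysosome, had 138, 178 and 219 CPM in haploinsufficient hearts, against 122, 140 and 150 CPM in wild-type hearts. It rose with a log2 fold change of 0.32 ± 0.08 (edgeR adjusted p = 0.0378), whereas Npc1 was at -0.01. The efflux genes again held no call, by edgeR, DESeq2 or limma, and none had an unadjusted p under 0.05. Their median was -0.08, with Nr1h2 at 0.04 ± 0.13 and Nr1h3 at 0.28 ± 0.31 (edgeR adjusted p = 0.919 and 0.688).

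A further 14 genes, called in no comparison, had levels whose ranges overlapped in all 3 groups. Pmvk, which phosphorylates mevalonate a second time, had a lowest, median and highest level of 32.5, 39.5 and 48.6 CPM in triple-knockout hearts, 32.4, 35.9 and 46.7 CPM in haploinsufficient hearts and 30.5, 35.4 and 39.1 CPM in wild-type hearts. Mvd, the next enzyme, had 16.9, 23.9 and 28.9 CPM in triple-knockout hearts, 18.2, 28.4 and 32.7 CPM in haploinsufficient hearts and 18.8, 22.01 and 27.5 CPM in wild-type hearts. Ggps1, on the branch away from sterols, had medians of 23.1, 22.7 and 23.2 CPM in the same order. Of these 3 mevalonate-stage genes Ggps1 was the nearest to equal between groups. In the sterol stage, Hsd17b7 had 54.2, 61.1 and 68.2 CPM in triple-knockout hearts, 38.3, 63.1 and 74.4 CPM in haploinsufficient hearts and 43.2, 48.7 and 63.3 CPM in wild-type hearts. Dhcr7 had 14.1, 19.3 and 24.8 CPM in triple-knockout hearts, 7.004, 16.1 and 20.3 CPM in haploinsufficient hearts and 8.13, 14.7 and 19.7 CPM in wild-type hearts. Sc5d had medians of 15.2, 14.8 and 12.1 CPM in the same order. The haploinsufficient group was the most spread for Hsd17b7 and Dhcr7. Tm7sf2 had medians of 6.76, 5.79 and 5.05 CPM in the same order, with a lowest haploinsufficient value of 0.584 CPM in replicate 2, the library of lowest total count.

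Scap had medians of 60.1 CPM in triple-knockout hearts, 69.2 CPM in haploinsufficient hearts and 67.6 CPM in wild-type hearts, and Insig2 had 12.6, 10.3 and 11.1 CPM in the same order. Neither of these sensing genes passed the test in any comparison. Npc1 had 47.2, 57.5 and 71.02 CPM in triple-knockout hearts, 34.6, 50.7 and 64.2 CPM in haploinsufficient hearts and 44.8, 52.7 and 56.96 CPM in wild-type hearts. Soat1 had medians of 49.5, 46.1 and 48.2 CPM and Mylip of 19.3, 16.1 and 18.2 CPM in the same order. Mylip spread the most in haploinsufficient hearts, between 7.80 and 28.6 CPM. The receptor gene Nr1h2 had medians of 31.2, 30.1 and 32.02 CPM, and Nr1h3 of 3.03, 4.31 and 3.42 CPM, in the same order.

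The count of calls in the haploinsufficient group fell when the library of lowest total count was left out. Whether leaving out any other library of that group would lower the count as much was not tested. Without the library of lowest total count, haploinsufficient replicate 2, 5 of the 10 calls were kept (Hmgcs1, Insig1, Cyp51, Fdps and Lss) and no other of the 32 was called. In the triple-knockout comparison 6 of 6 were kept, but that library is in neither of its groups and enters its fit only through shared estimates. How the triple-knockout calls bear the loss of a library of their own was not tested in this way. The median log2 fold change of the 18 synthesis genes in the haploinsufficient group was 0.30 without that library and 0.31 with it, with 17 positive both times.

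Between the triple-knockout and haploinsufficient hearts, which differ by label in the GRK2 allele, edgeR called none of the 32 genes. An unadjusted p under 0.05 was reached by 4 of the 32, or fewer than in proportion to the 15.3% of all genes tested that reached it. Of all genes tested, 0.0789% were called higher and 0.316% lower in the triple knockout. The median log2 fold change of the 18 synthesis genes was 0.03. For Insig1 it was -0.01, with 2 SE either side reaching -0.25 and 0.24, and for Hmgcs1 it was 0.17, reaching -0.01 and 0.35. Differences of the size seen against wild type thus lay outside these intervals for Insig1 and Hmgcs1. Differences small enough to fall inside the intervals are not settled.

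The 4 genes with the smallest p are given as values, since their number does not stand above that background: Npc2, Abca1, Nsdhl and Ebp. Npc2 had 130, 135 and 152 CPM in triple-knockout hearts and 138, 178 and 219 CPM in haploinsufficient hearts, so that no triple-knockout library reached the haploinsufficient median. Its log2 fold change was -0.32 ± 0.09 (edgeR adjusted p = 0.0857). Abca1 had 65.7, 93.3 and 135 CPM in triple-knockout hearts and 56.0, 66.2 and 97.2 CPM in haploinsufficient hearts, with a log2 fold change of 0.49 ± 0.14 (edgeR adjusted p = 0.102). DESeq2 called both, where it called 1.94% of all genes, and limma on FPKM called neither. With offsets corrected for a trend with exon length, the Abca1 value was 0.23. Nsdhl had 11.2, 14.7 and 21.5 CPM in triple-knockout hearts and 3.71, 11.7 and 12.998 CPM in haploinsufficient hearts (0.50 ± 0.21, edgeR adjusted p = 0.256). Ebp had 13.5, 16.8 and 21.2 CPM in triple-knockout hearts and 18.3, 20.6 and 25.1 CPM in haploinsufficient hearts (-0.26 ± 0.11, edgeR adjusted p = 0.265).

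**Figure D4:**
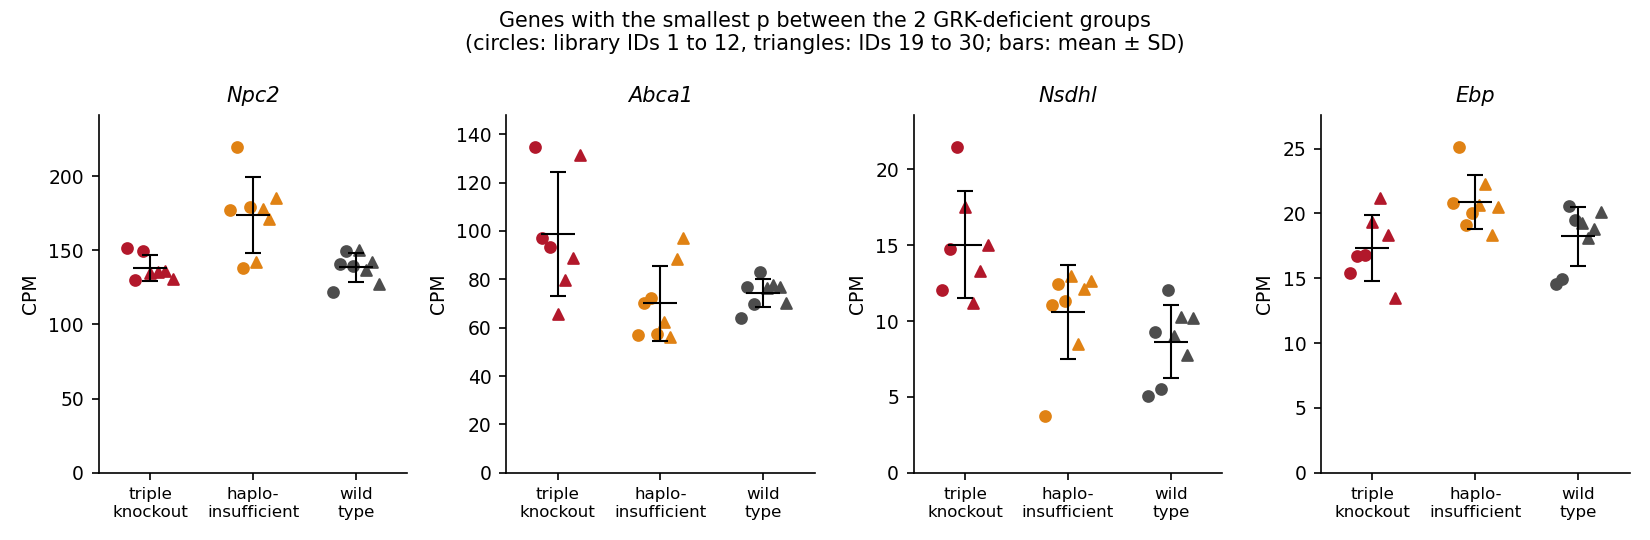
CPM of the 4 genes with an unadjusted p under 0.05 between triple-knockout and haploinsufficient hearts, with wild-type hearts at the right; 1 point per library, bars are mean ± SD, circles library IDs 1 to 12 and triangles IDs 19 to 30. Npc2 lies between 130 and 152 CPM in all 7 triple-knockout libraries, and none of the 4 passed the edgeR test, where 15.3% of all genes tested had such a p.

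To see each library across the pathway, the log2 CPM of each gene was set against its wild-type mean and the median over the genes of a role was taken. Over the 18 synthesis genes, the lowest, median and highest library were at 0.10, 0.41 and 0.47 in the triple knockout, at 0.15, 0.36 and 0.46 in the haploinsufficient group and at -0.09, 0.03 and 0.12 in wild type. Only 1 triple-knockout library, replicate 6, lay within the wild-type range, and no haploinsufficient library did. Replicate 6 was the lowest triple-knockout library for 9 of the 18 synthesis genes. Over the 5 efflux genes the libraries were at -0.12, 0.05 and 0.18 in the triple knockout, at -0.28, -0.15 and 0.26 in the haploinsufficient group and at -0.10, -0.01 and 0.13 in wild type. Here the 3 groups overlapped. The 5 uptake, traffic and storage genes also overlapped between groups, with medians of 0.16, 0.08 and 0.03 in the same order.

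**Figure D5:**
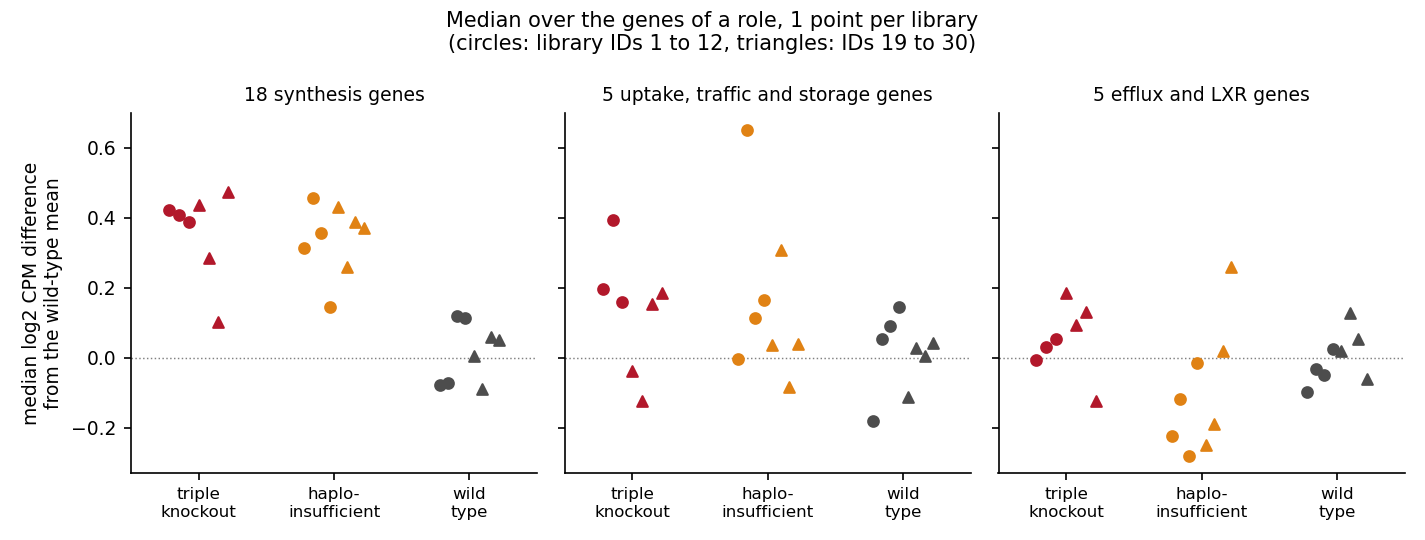
Median over the genes of a role of the log2 CPM difference from the wild-type mean, 1 point per library, for 18 synthesis genes, 5 uptake, traffic and storage genes and 5 efflux and LXR genes; circles are library IDs 1 to 12 and triangles IDs 19 to 30. For synthesis genes the GRK-deficient libraries lie between 0.10 and 0.47 and the wild-type libraries between -0.09 and 0.12, and for efflux genes the groups overlap.

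Library IDs fell into 2 runs, 1 to 12 and 19 to 30, with all 3 groups in each. In the triple knockout the log2 fold changes of the 6 genes were larger among low than high IDs: 0.90 and 0.49 for Hmgcs1, 0.78 and 0.56 for Insig1, 0.71 and 0.34 for Idi1, 0.60 and 0.20 for Fdft1, 0.79 and 0.27 for Lss, and 0.86 and 0.30 for Stard4. Fitted alone, with fewer libraries, the low IDs gave 1 call among the 32 in the triple knockout and the high IDs 0, and in the haploinsufficient group the low IDs gave 0 and the high IDs 3. Of all genes, these fits called 0.369% and 0.368% in the triple knockout and 0.148% and 1.29% in the haploinsufficient group. A test of the difference between the 2 runs called none of the 32 genes with edgeR in either comparison, and of all genes tested it called 0.172% in the triple knockout and none in the haploinsufficient group. At an unadjusted p under 0.05 it held 5 of the 32 and 7.70% of all genes in the triple knockout, and 2 of the 32 and 7.34% of all genes in the haploinsufficient group. The 5 were Hmgcs1, Fdft1, Lss and Stard4, all among the 6 called genes, and Nr1h2. The 2 were Fdps and Mvk. The lowest adjusted p among the 32 was 0.616 in the triple knockout and 0.631 in the haploinsufficient group. In the haploinsufficient group Fdps was at 0.21 among low IDs and at 0.71 among high IDs, while Insig1 was at 0.71 and 0.63. Synthesis genes were positive in 14 of 18 among low IDs and 17 of 18 among high IDs in the triple knockout, and in 16 and 17 of 18 in the haploinsufficient group.

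Lung, foregut and thymus markers reached their highest sums in libraries of the GRK-deficient groups. The sums of these markers and of liver markers overlapped between all 3 groups. The 14 lung, foregut and thymus markers summed to 56.4 to 251 CPM in triple-knockout hearts, to 51.5 to 380 CPM in haploinsufficient hearts and to 45.3 to 130 CPM in wild-type hearts. Over the 10 that passed the expression filter the median log2 fold change was 2.13 in the triple knockout and 2.43 in the haploinsufficient group, with 9 positive in each. Markers low in wild type can pass that filter through GRK-deficient libraries, which can raise such medians. The wild-type medians of Cldn6 and Foxf1 were 0 and 0.636 CPM. The medians over the filtered markers thus do not measure the size of a group difference. Cldn6 and Foxf1 rose in the haploinsufficient group, at 4.22 ± 1.133 and 4.12 ± 1.05 (edgeR adjusted p = 0.0428 and 0.0344), where 0.861% of all genes tested were called higher. There 7 of 10 had an unadjusted p under 0.05 in edgeR, against 17.2% of all genes tested. None was called in the triple knockout by edgeR, DESeq2 or limma. In that comparison 6 of 10 had such a p in edgeR, against 10.8% of all genes tested. The 11 liver markers summed to 27.9 to 62.6 CPM, to 31.05 to 73.2 CPM and to 32.3 to 69.2 CPM in the same 3 groups. No marker of either list was at 0 in a whole group. Of 8 liver markers tested, 5 were positive in the triple knockout with a median log2 fold change of 0.08. In the haploinsufficient group 6 were positive with a median of 0.74. In edgeR neither comparison held a call among them. Alb was at 1.12 ± 0.33 in the haploinsufficient group (edgeR adjusted p = 0.0675, called by DESeq2). Combining both lists, 5 libraries scored more than 1.5 log2 units above the wild-type mean, 2 triple-knockout and 3 haploinsufficient. Among the triple-knockout hearts the synthesis median was 0.42 to 0.47 in these 2 libraries and 0.10 to 0.44 in the other 5. Among the haploinsufficient hearts it was 0.31 to 0.39 in the 3 and 0.15 to 0.46 in the other 5. Without the 5 libraries, 3 of the 32 were called higher in the triple knockout, Hmgcs1, Insig1 and Nsdhl, where 0.416% of all genes were. In the haploinsufficient group 4 were called, Insig1, Hmgcs1, Fdps and Hsd17b7, where 0.381% of all genes were. The median over synthesis genes without them was 0.32 in the triple knockout and 0.36 in the haploinsufficient group.

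Macrophages handle much cholesterol and hold LXR targets. The 10 macrophage markers summed to 166, 179 and 231 CPM in triple-knockout hearts (lowest, median and highest), to 118, 150 and 198 CPM in haploinsufficient hearts and to 116, 141 and 189 CPM in wild-type hearts. None was at 0, and 1 of 10, the mannose receptor gene Mrc1, rose in the triple knockout with a log2 fold change of 0.77 ± 0.17 (edgeR adjusted p = 0.0124). There 9 of 10 were positive with a median of 0.33, and 4 had an unadjusted p under 0.05 in edgeR, against 10.8% of all genes tested. In the haploinsufficient group 8 of 10 were positive with a median of 0.09, and DESeq2 called Mrc1. Between the GRK-deficient groups DESeq2 called Csf1r and Emr1 higher in the triple knockout, where it called 1.94% of all genes. The part of macrophages in the values of Abca1 and of the other genes was not tested. Neural markers, 9 genes such as Gap43 and Tubb3, summed to 43.6, 63.5 and 148 CPM in triple-knockout hearts, to 36.8, 46.2 and 64.01 CPM in haploinsufficient hearts and to 33.0, 39.1 and 49.5 CPM in wild-type hearts. None was at 0 in a whole group. All 8 that were tested had a positive log2 fold change in the triple knockout, with a median of 1.03, and Gap43, a growth cone protein gene, rose at 0.55 ± 0.11 (edgeR adjusted p = 0.00408). In the haploinsufficient group 6 of 8 were positive with a median of 0.29, and edgeR, DESeq2 and limma called none. There 1 of 8 had an unadjusted p under 0.05 in edgeR, against 17.2% of all genes tested. In the triple knockout 6 of 8 had such a p, against 10.8% of all genes tested. The lowest neural sum among the triple-knockout hearts was in replicate 6, which also had the lowest median over the synthesis genes, 0.10. Triple-knockout replicate 4 had a neural sum of 50.1 CPM and a synthesis median of 0.44. Replicate 1, with the highest neural sum, had a synthesis median of 0.42. The part of neural cells in the values of the 32 genes was not tested. Sums of 8 endothelial markers ran from 967 to 1218 CPM in triple-knockout hearts. They ran from 846 to 1124 CPM in haploinsufficient hearts and from 948 to 1311 CPM in wild-type hearts. In the haploinsufficient group 0 of 8 were positive, with a median of -0.19. Cdh5 and Tek fell there, at -0.60 ± 0.11 and -0.45 ± 0.09 (edgeR adjusted p = 0.00390 and 0.00505), where 1.38% of all genes tested were called lower. In the triple knockout 3 of 8 were positive, and Tek was at -0.32 ± 0.09 (edgeR adjusted p = 0.0865, called by DESeq2). Kdr was at 0.28 ± 0.12 there (edgeR adjusted p = 0.320). All 8 endothelial markers were higher in the triple knockout than in the haploinsufficient group. Of these, edgeR called none and DESeq2 called Cdh5 and Kdr, where it called 1.94% of all genes.

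Other genes of the pathway, from lists outside the 32, were seldom called. Of 8 tested genes of further synthesis and SREBP steps none was called in either comparison by edgeR, with 3 at an unadjusted p under 0.05 in the triple knockout and 4 in the haploinsufficient group, where 10.8% and 17.2% of all genes tested were. The 2 with the smallest p in the triple knockout were Sc4mol, the sterol methyl oxidase now named Msmo1, at 0.57 ± 0.18 (edgeR adjusted p = 0.142) and Acly, the enzyme that supplies cytosolic acetyl-CoA, at 0.24 ± 0.10 (edgeR adjusted p = 0.317). In the haploinsufficient group they were Acss2, which makes acetyl-CoA from acetate, at -0.46 ± 0.14 (edgeR adjusted p = 0.0709, called by DESeq2 and limma) and Srebf1, the gene of the related factor SREBP1, at 0.32 ± 0.10 (edgeR adjusted p = 0.106). Of 8 further uptake genes, none was called in the triple knockout by edgeR, DESeq2 or limma, and 0 had an edgeR unadjusted p under 0.05. In the haploinsufficient group Vldlr, a lipoprotein receptor gene, fell to 67.2 ± 12.02 CPM (SD, n = 8), against 94.4 ± 7.76 CPM in wild-type hearts (SD, n = 8), a log2 fold change of -0.50 ± 0.10 (edgeR adjusted p = 0.00574). In the triple knockout Vldlr stood 0.33 ± 0.10 above the haploinsufficient group on the log2 scale (edgeR adjusted p = 0.143).

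None of 10 genes of sterol-regulated protein turnover and of the cofactors NF-Y and Sp1, of 12 LXR partners and oxysterol enzymes, or of 9 genes that use isoprenoids was called in either comparison by edgeR, DESeq2 or limma. At an unadjusted p under 0.05 in edgeR there were 1, 2 and 1 of them in each comparison, against 10.8% of all genes tested in the triple knockout and 17.2% in the haploinsufficient group. The first list's smallest p belonged to Nfyb, a subunit of NF-Y, at 0.28 ± 0.13 in the triple knockout (edgeR adjusted p = 0.456) and to Erlin2 at 0.21 ± 0.08 in the haploinsufficient group (edgeR adjusted p = 0.147). The smallest p among the LXR and oxysterol genes belonged to Cyp27a1, an oxysterol-making enzyme, at -0.48 ± 0.21 in the triple knockout and -0.54 ± 0.21 in the haploinsufficient group (edgeR adjusted p = 0.364 and 0.184). Dhdds, which makes dolichol from the same isoprenoid units, was at 0.25 ± 0.11 and 0.22 ± 0.10 (edgeR adjusted p = 0.358 and 0.281).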

How the data were processed

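Per the labels' protocols, Trizol RNA of frozen hearts was depleted of ribosomal RNA and made into single-end libraries without strand. The submitters' processing notes name TopHat2 (version 2.0.10), Bowtie2, HTSeq, Cufflinks (version 2.1) and the build mm10. The authors deposited whole-number read counts per gene, a table of FPKM values, and their annotation, whose exon coordinates gave positions, lengths and overlaps per the file headers. Strand was not kept, so overlapping antisense transcripts cannot be told apart. Reads were not realigned.

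The test was quasi-likelihood in edgeR (version 4.0.16; R version 4.3.3) on the counts of all 23 libraries, with genotype group and library ID set as terms. The expression filter (count of 10, total of 15) left 13941 genes. Single-exon features of the targeted genes and Cre entered library sizes only. The common biological coefficient of variation was 0.208. Tests were two-sided, and the SE is the log2 fold change divided by the root of F. Log2 CPM used a prior count of 1. Alternatives were DESeq2 (version 1.42.0), limma (version 3.58.1) on log2(FPKM + 1) and log2(FPKM + 0.1) for genes at 0.5 FPKM or more in 7 libraries, other scalings, filters, terms and subsets of libraries. The fit and its calls were checked on simulated data. The limit that 0 counts allow (3 counts) is 0.214 CPM at the greatest depth and 1.71 CPM at the least, and covers counting error only.

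Every one of the 32 genes is named. Fold changes with their error are given for those called or at an unadjusted p under 0.05, and for the regulators. Other pathway lists give their called genes or their smallest p, and most marker lists their sums and called genes. Red-cell and proliferation markers held no call by edgeR, DESeq2 or limma. Of 5 red-cell markers tested, 0 were positive in the triple knockout (median log2 fold change -0.47) and 3 in the haploinsufficient group (0.01). Of 8 proliferation markers, 3 were positive in the triple knockout (median -0.01) and 7 in the haploinsufficient group (0.18). Genes and lists were chosen with earlier results of these data known. Some genes of these lists are not reported here. Promoter sequences are from RefSeq (GRCm38.p6), matched by symbol.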

Additional observations from a re-analysis of the deposited data

Results flagged for a closer look

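Over the 32 genes and 3 groups, 96 sets of libraries were examined for a library that stands apart from its group by Dixon's criterion, which chance meets in about 1 of 20. It was met in 3. Insig1 was lowest in triple-knockout replicate 6, at 37.6 CPM, with the next library at 50.1 CPM. Acat2 was highest in wild-type replicate 4, at 17.96 CPM, with the next at 12.9 CPM. Abcg1 was highest in wild-type replicate 7, at 33.2 CPM, with the next at 26.4 CPM.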

How the results depend on the processing

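The triple-knockout count of 6 was 5 to 7 in most alternatives, including DESeq2 (7) and the replicate block (6, of which 5 were shared). It was 3 in limma on log2(FPKM + 1) with no filter and 3 without the libraries of high neighbouring-tissue score. With low library IDs alone it was 1, and with high library IDs alone 0. Calls over all genes tested, in either direction, were 165 in the main fit, 291 with DESeq2 and 147 with the replicate block. In the fits named after these they were 89, 124, 50 and 51, in the order given. The haploinsufficient count of 10 was 6 with total-count scaling, 6 with the replicate block, 6 with only the groups compared, 5 without the library of lowest total count, 4 without the libraries of high neighbouring-tissue score, 0 with low library IDs alone and 3 with high library IDs alone. It was 4 in limma on log2(FPKM + 1), 4 on log2(FPKM + 0.1) and 2 with no filter. All-gene calls of the haploinsufficient comparison were 312 in the main fit. In these alternatives, in the order given, they were 304, 219, 246, 270, 115, 20, 179, 289, 268 and 229. The count of 0 between the GRK groups was 2 with DESeq2, 1 with low library IDs alone and 0 with the replicate block. Over all genes tested, 55 were called in the main fit of that comparison, and 270, 176 and 16 in these alternatives. The cause of these moves was not tested. The subsets also hold fewer libraries, and the part of this was not tested either. The labels do not say that replicate numbers pair libraries: same-numbered libraries of triple-knockout and wild-type hearts had residual correlations between -0.263 and 0.044, haploinsufficient and wild-type ones between -0.226 and -0.025, and triple-knockout and haploinsufficient ones between -0.196 and 0.484.

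Of the values of single genes under the alternatives, 524 kept their direction and side of the threshold, 88 kept the direction and lost the call, 10 gained a call and 18 changed sign. All 18 were uncalled. In the triple knockout Nr1h2 was at -0.0063 without the ID set term and -0.24 with high IDs alone. Insig2 was at -0.011 with a sex term and -0.22 with high IDs alone. Nr1h3 was at 0.21 with high IDs alone, 0.024 without the high-score libraries and 0.015 in limma on log2(FPKM + 0.1). In the haploinsufficient group with low IDs alone, Mvk was at -0.031, Scap at -0.11, Insig2 at 0.22 and Nr1h3 at -0.12. Without the high-score libraries Scap was at -0.11, Insig2 at 0.067 and Nr1h3 at -0.31. Scap was at -0.0082 in the limma fits on log2(FPKM + 1), with or without a filter, and at -0.010 on log2(FPKM + 0.1), and Nr1h2 was at -0.16 with high IDs alone.

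Genes of low level, such as Nr1h3, are the least precise here.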
